A study of Mus musculus with 4 samples.

Results

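RING finger ubiquitin ligases and E2 ubiquitin-conjugating enzymes were followed in sorted haploid testis cells of mice with and without Sox30, which encodes a SOX-family transcription factor. The genes were taken by name: every symbol that begins with Rnf or March and a digit, or with Ube2, leaving out Rnf17 and Rnf212. Of 22552 symbols, 122 met this rule, 76 Rnf genes, 35 Ube2 genes and 11 March genes. The March genes stand in the tables as dates (10-Mar for March10), as happens when a spreadsheet reads such symbols. All 11 could be read back without ambiguity, since the only other symbols that turn into the same dates, Marc1 and Marc2, stand in the tables under their older names Mosc1 and Mosc2.

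The haploid cells came from testes of mice aged 23 days and were separated by flow sorting on Hoechst fluorescence, at an age at which, by the design text, spermatids have developed no further than step 3. RNA was sequenced in 4 libraries, 2 from Sox30 knockout mice and 2 from wild-type mice. The background label reads DBA/C58/ICR and DBA/C60/ICR for knockout libraries 1 and 2, and DBA/C57/ICR and DBA/C59/ICR for wild-type libraries 1 and 2. In sample order this label counts up from DBA/C57/ICR to DBA/C60/ICR, as a spreadsheet fill would do. Whether the backgrounds differed is therefore not known. The labels say neither which part of Sox30 was removed nor whether each library stands for another mouse. The p-values below therefore reflect variation among 4 libraries, which could be technical. Levels are FPKM, fragment numbers normalised for transcript length and library size, so levels of different genes are compared per length. Changes are differences of log2(FPKM + 1), knockout minus wild type, which understates the change of low genes.

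Ubiquitin is attached to proteins in a relay. An E1 enzyme activates it, an E2 enzyme carries it, and an E3 ligase brings the loaded E2 to its target; RING finger ligases do so by holding the E2 on a zinc-binding RING domain. MARCH ligases carry a variant RING and mostly sit in membranes. In spermatids the system marks histones before protamines replace them, and serves the turnover of proteins and organelles as the cell is rebuilt into a sperm.

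Sox30 itself stood at 1.46 and 3.16 FPKM in the knockout libraries, against 11.4 and 16.2 FPKM in the wild-type libraries (log2 change -2.19, SE 0.43, limma adjusted p = 0.0219). The call ended without wild-type library 1 (adjusted p = 0.295) or wild-type library 2 (adjusted p = 0.357). Of 8 haploid spermatid markers, 7 were lower in the knockout, with summed levels of 170 to 274 FPKM in the knockout, against 6035 to 9673 FPKM in the wild type. The 6 spermatocyte markers summed to 184 to 216 FPKM in the knockout and 250 to 302 FPKM in the wild type, with none past the threshold. Most of these sums was Sycp3, at 143 and 172 FPKM in the knockout and 217 and 177 FPKM in the wild type. All 6 had both knockout values below both wild-type values. Their median change was -0.84, against -0.23 over all genes tested. The summed levels of the spermatogonial, Leydig cell and blood and macrophage lists were also lower in the knockout libraries. The 5 spermatogonial markers summed to at most 0.0206 FPKM in the knockout, against 9.68 to 10.4 FPKM in the wild type, the 5 Leydig cell markers to at most 0.0674 FPKM, against 36.8 to 60.0 FPKM, and the 6 blood and macrophage markers to 0.283 to 7.45 FPKM, against 132 to 242 FPKM. Most of the wild-type Leydig sum was Insl3, at 54.8 and 30.3 FPKM, and most of the wild-type blood and macrophage sum was Hba-a1, at 220 and 109 FPKM. In that last list Csf1r overlapped, at 0 and 0.283 FPKM in the knockout and 0.0174 and 0.0125 FPKM in the wild type. C1qa had no signal in any library. Sertoli cell markers summed to 0.537 to 3.33 FPKM in the knockout and 1.26 to 5.41 FPKM in the wild type, so these ranges overlapped. Kit, Stra8, Zbtb16 and Dmrt1 of the spermatogonial list and Cyp17a1, Cyp11a1 and Hsd3b1 of the Leydig list had no signal (FPKM of 0) in either knockout library. The part of these cells in the results below was not tested. In such bulk samples, fewer cells of a type and less RNA per cell cannot be told apart.

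Of the 122 genes, 88 had a mean of at least 1 FPKM over the 4 libraries and were tested among 9124 genes. The other 34 had means of up to 0.980 FPKM, and Rnf186 and Rnf39 were listed at 0 in every library. In the knockout, 8 of the 88 were lower and 1 was higher at a limma adjusted p under 0.05, 10.2% of those tested, where 15.3% of all genes tested were called. By direction, 9.09% were lower, against 13.4% of all genes tested, and the 1 higher gene stands against 1.95% of all genes tested. The 8 were Rnf151, Rnf133, Rnf148, Ube2dnl, Rnf139, Rnf41, Rnf44 and Ube2g2, and the 1 was Rnf31. Both knockout values lay below both wild-type values for 42 of the 88 genes, where 38.6% of all genes tested do so, and above them for 17, where 22.2% of all genes tested do so. The counts depended on single libraries. A genotype left with 1 library takes its variation from the other genotype, and the counts over all genes tested moved as well. Such counts therefore do not compare directly with the main fit, and median changes are given instead. Without wild-type library 1 the median was -0.37 for the 88 genes, against -0.36 over all genes tested. Leaving out wild-type library 2, it was -0.25 for the 88 genes, against -0.13 over all genes tested. When knockout library 1 was left out, the medians were -0.46 and -0.40, and without knockout library 2 they were -0.20 and -0.06.

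**Figure D1:**
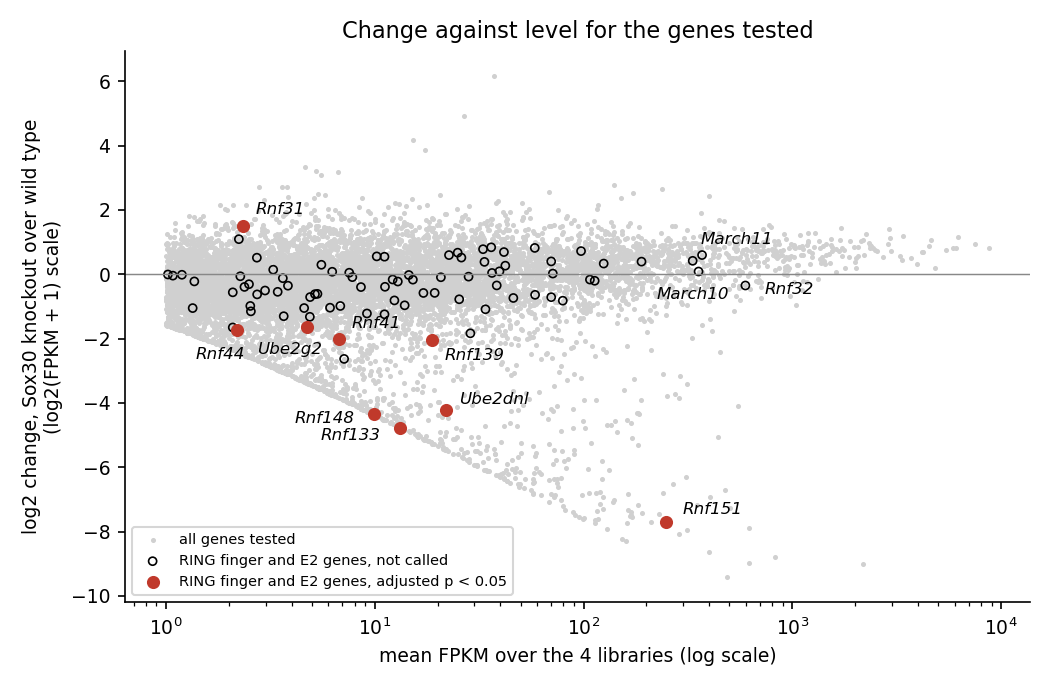
Change of each tested gene (knockout over wild type, log2(FPKM + 1) scale, vertical axis) against its mean FPKM over the 4 libraries (log scale, horizontal axis). Grey points are all 9124 genes tested, open circles the RING finger and E2 genes that were not called and red points the 9 that were; Rnf151 lies lowest of the red points at -7.70, while Rnf32, March10 and March11, of similar or higher level, lie near 0.

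Genes expressed mainly in spermatids or other germ cells split into those that were all but absent in the knockout and those that were not. The list was drawn from general knowledge of where the genes are expressed, with earlier results of these data known. Its count and median are therefore a description and no test against other genes. It held 9 of the 122 genes, and each passed the filter. In the knockout, 4 of them fell (Rnf151, Rnf133, Rnf148 and Ube2dnl), 0 rose and 5 did not pass (Ube2u, Rnf32, March10, March11 and Rnf113a2), where 13.4% of all genes tested were lower. The median change of the 9 was -0.64, against -0.23 over all genes tested. The 4 falls were called under each scaling tried, but not all of them without wild-type library 1 or wild-type library 2. In those fits fewer of all genes tested were called as well. Rnf133 and Rnf148 passed the filter through their wild-type levels, as did 3 of the other tested genes of the rule.

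The stretch upstream of the start site is shown for the 4 genes that fell, since Sox30 encodes a DNA-binding protein. The genes were grouped by their change in these same data, and binding of SOX30 to these stretches was not tested. SOX proteins bind short sites built around ACAAT. The sequences are the 250 bases before each RefSeq start in GRCm38.p6, a later build than the mm9 named by the submitters, in lower case with ACAAT or its reverse complement ATTGT in capitals. The entry Ube2dnl was matched to RefSeq Ube2dnl1, whose older name it is.
Rnf151 (chr17:24718058-24718307, minus strand): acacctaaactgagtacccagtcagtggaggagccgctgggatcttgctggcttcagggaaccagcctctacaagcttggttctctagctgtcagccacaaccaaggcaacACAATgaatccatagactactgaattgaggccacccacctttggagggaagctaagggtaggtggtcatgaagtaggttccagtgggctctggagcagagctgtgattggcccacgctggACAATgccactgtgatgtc
Rnf133 (chr6:23650306-23650555, minus strand): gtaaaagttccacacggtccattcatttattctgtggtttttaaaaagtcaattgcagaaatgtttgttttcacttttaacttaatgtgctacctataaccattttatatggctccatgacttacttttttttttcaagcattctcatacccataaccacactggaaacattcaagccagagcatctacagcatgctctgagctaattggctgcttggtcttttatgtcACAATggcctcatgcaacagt
Rnf148 (chr6:23655137-23655386, minus strand): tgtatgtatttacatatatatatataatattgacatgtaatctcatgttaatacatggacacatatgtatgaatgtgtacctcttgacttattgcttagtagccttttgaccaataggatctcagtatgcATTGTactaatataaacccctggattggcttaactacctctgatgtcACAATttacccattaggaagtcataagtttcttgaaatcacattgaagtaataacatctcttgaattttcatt
Ube2dnl (chrX:114904762-114905011, plus strand): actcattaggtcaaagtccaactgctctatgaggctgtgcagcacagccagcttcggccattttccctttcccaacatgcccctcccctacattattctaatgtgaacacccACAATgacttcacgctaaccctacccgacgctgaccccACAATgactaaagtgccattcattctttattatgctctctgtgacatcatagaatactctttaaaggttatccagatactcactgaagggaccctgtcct

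The same stretch follows for 4 genes of the list that did not pass the test, each with a RefSeq promoter at hand.
Rnf32 (chr5:29195743-29195992, plus strand): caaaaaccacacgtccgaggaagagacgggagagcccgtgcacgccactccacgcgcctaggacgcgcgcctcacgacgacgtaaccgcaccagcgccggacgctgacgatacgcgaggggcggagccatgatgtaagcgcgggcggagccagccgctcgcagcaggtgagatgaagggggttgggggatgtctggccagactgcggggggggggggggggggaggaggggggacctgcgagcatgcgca
March10 (chr11:105456736-105456985, minus strand): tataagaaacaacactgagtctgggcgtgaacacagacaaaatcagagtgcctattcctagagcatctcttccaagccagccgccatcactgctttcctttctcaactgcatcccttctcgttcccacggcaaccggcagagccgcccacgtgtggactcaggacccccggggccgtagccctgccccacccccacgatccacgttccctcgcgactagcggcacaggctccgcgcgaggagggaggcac
March11 (chr15:26308798-26309047, plus strand): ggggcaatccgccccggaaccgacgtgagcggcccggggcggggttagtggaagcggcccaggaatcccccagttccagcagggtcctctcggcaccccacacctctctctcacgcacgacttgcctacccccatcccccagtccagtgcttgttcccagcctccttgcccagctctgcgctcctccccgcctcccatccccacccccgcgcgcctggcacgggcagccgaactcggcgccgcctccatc
Ube2u (chr4:100478617-100478866, plus strand): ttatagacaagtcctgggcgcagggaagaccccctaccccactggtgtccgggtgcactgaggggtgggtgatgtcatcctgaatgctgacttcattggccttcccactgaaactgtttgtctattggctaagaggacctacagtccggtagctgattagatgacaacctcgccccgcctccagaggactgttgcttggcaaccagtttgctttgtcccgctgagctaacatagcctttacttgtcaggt

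ACAAT, read on both strands, occurred in 4 of the 4 promoters of fallen genes and in 0 of these 4. It lay 139 and 19 bases before the start of Rnf151, 21 bases before that of Rnf133, 73 bases before that of Rnf148 with ATTGT at 120 bases, and 138 and 100 bases before that of Ube2dnl, counted from the first base of the match. Of all 32851 RefSeq promoters of this length, 27.7% hold it, as do 21.4% of those of the 7314 tested genes with a promoter. Among promoters of all genes lower in the knockout the share was 37.7%, and among those of all genes higher 20.4%. Base composition moves with this count. The fallen genes' promoters had GC contents of 53.6% for Rnf151, 36.8% for Rnf133, 30.8% for Rnf148 and 46.4% for Ube2dnl, against 70.0% for Rnf32, 60.8% for March10, 71.2% for March11 and 53.6% for Ube2u. The median was 52.4% over all genes lower in the knockout and 58.4% over all genes tested. The part of base composition in the count was not tested. TGACG, a core of the cAMP response element, read on both strands, occurred in none of the 4 fallen genes' promoters and in that of Rnf32, 146 bases before the start. It is held by 17.8% of all promoters and by 28.1% of those of genes tested. The share was 19.5% among all genes lower in the knockout and 21.1% among all genes higher. Among tested genes of the rule that did not fall it was 34.4%. ACAAT and TGACG did not overlap in any promoter shown. Outside this list, the promoters of Rnf41 and Rnf44, which also fell, held neither. Of the 64 tested genes of the rule that had a promoter and did not fall, 7 held ACAAT, or 10.9%.

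Rnf151, a RING finger protein of round spermatids, was among the most abundant genes of the wild-type cells and close to absent in the knockout. It stood at 1.53 and 1.22 FPKM in the knockout libraries, against 571 and 422 FPKM in the wild-type libraries, each wild-type value far above each knockout value. The wild-type mean was 362 times the knockout mean, and the log2 change was -7.70 (SE 0.32, limma adjusted p = 4.8e-04). By mean level it ranked at place 7344 of all symbols in the knockout and at place 214 in the wild type. It made up 0.0816% and 0.0919% of the summed Rnf levels in the knockout, against 23.6% and 19.1% in the wild type. The summed Rnf levels were 1869 and 1326 FPKM in the knockout and 2417 and 2211 FPKM in the wild type. Without Rnf151 they were 1867 and 1325 FPKM in the knockout and 1845 and 1789 FPKM in the wild type, so that knockout library 1 then lay above both wild-type libraries and knockout library 2 below them. As a share of all FPKM of a library, they were then 0.312% and 0.196% in the knockout, both below the 0.325% and 0.357% of the wild type. The call on Rnf151 ended in 1 of 13 alternatives, without wild-type library 2, where the change was -7.92. The variation then comes from the knockout libraries, so the lost call does not show that Rnf151 depends on that library. Over the alternatives the change ranged from -8.39 to -6.28.

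Rnf133 and Rnf148 are neighbours on chromosome 6 and encode related ligases of the protease-associated transmembrane group, of which RNF133 is known as a spermatid ligase of the endoplasmic reticulum. Both were listed at 0 in both knockout libraries. Wild-type levels of Rnf133 were 29.2 and 23.6 FPKM (log2 change -4.77, SE 0.35, limma adjusted p = 8.2e-04), and those of Rnf148 were 23.6 and 15.9 FPKM (log2 change -4.35, SE 0.37, limma adjusted p = 0.00118). With every knockout value at 0, the size of these changes is set by the wild-type level and the pseudocount, and no fold is given. Such a listing was not rare, since 22.4% of all genes lower in the knockout were at 0 in both knockout libraries. Without wild-type library 2 neither passed (adjusted p = 0.0653 for both). In GENCODE M21 no exon of either overlaps another gene's, and none of their 50-base words occurs in transcripts of other genes.

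Ube2dnl, on the X chromosome, is a testis gene of the UBE2D type. It stood at 0.105 and 3.68 FPKM in the knockout libraries, against 50.3 and 34.0 FPKM in the wild-type libraries (log2 change -4.22, SE 0.71, limma adjusted p = 0.0128). The knockout libraries differed from each other by more than for the 3 genes above, yet both lay well below the wild type. The call ended without wild-type library 1 (adjusted p = 0.363), without wild-type library 2 (adjusted p = 0.352), with a pseudocount of 0.1 (adjusted p = 0.0781) and when low genes were also tested (adjusted p = 0.0669). A share of 11.7% of its 50-base words also occurs in Ube2dnl2, so reads may be split between the copies. That copy, listed under the clone name 4930524E20Rik and so outside the rule, stood at 2.41 and 2.68 FPKM in the knockout, against 36.0 and 26.1 FPKM in the wild type (limma adjusted p = 0.00275), named after its values were seen.

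The other 5 germ cell genes kept substantial levels in the knockout. Rnf32, a testis gene with RING fingers, was the most abundant of the 122 genes over the 4 libraries, at 656 and 404 FPKM in the knockout and 745 and 578 FPKM in the wild type (log2 change -0.35, SE 0.34, limma adjusted p = 0.523). Its groups overlapped. March10, a microtubule-associated ligase of elongating spermatids in the rat, stood at 442 and 296 FPKM in the knockout and 326 and 358 FPKM in the wild type (log2 change 0.08, SE 0.31, limma adjusted p = 0.877). The knockout values lay on either side of the wild-type ones, and 21.4% of its exon bases lie opposite a predicted gene, whose reads cannot be told apart without strand. March11, a spermatid ligase of vesicle membranes in the rat, stood at 393 and 366 FPKM in the knockout, both above the 244 and 330 FPKM of the wild type (log2 change 0.42, SE 0.29, limma adjusted p = 0.367). Ube2u, a testis E2, stood at 42.7 and 48.5 FPKM in the knockout, both below the 75.6 and 67.6 FPKM of the wild type (log2 change -0.64, SE 0.28, limma adjusted p = 0.188). Rnf113a2, a homologue of the splicing factor gene Rnf113a1, stood at 59.5 and 34.8 FPKM in the knockout, both above the 25.5 and 24.6 FPKM of the wild type (log2 change 0.84, SE 0.36, limma adjusted p = 0.180). It was called higher with quantile normalization (limma adjusted p = 0.0495), but not with median-ratio scaling (limma adjusted p = 0.0940) or the GC correction (limma adjusted p = 0.0813). Its change was 0.46 without knockout library 1 and 1.22 without knockout library 2. Rnf113a1 itself was listed at 0 in both knockout libraries and in 1 wild-type library. Ube2d2b, listed under the clone name 1700013N18Rik and so outside the rule, stood at 325 and 191 FPKM in the knockout and 383 and 310 FPKM in the wild type (limma adjusted p = 0.410). A p above the threshold does not show that these levels were the same.

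**Figure D2:**
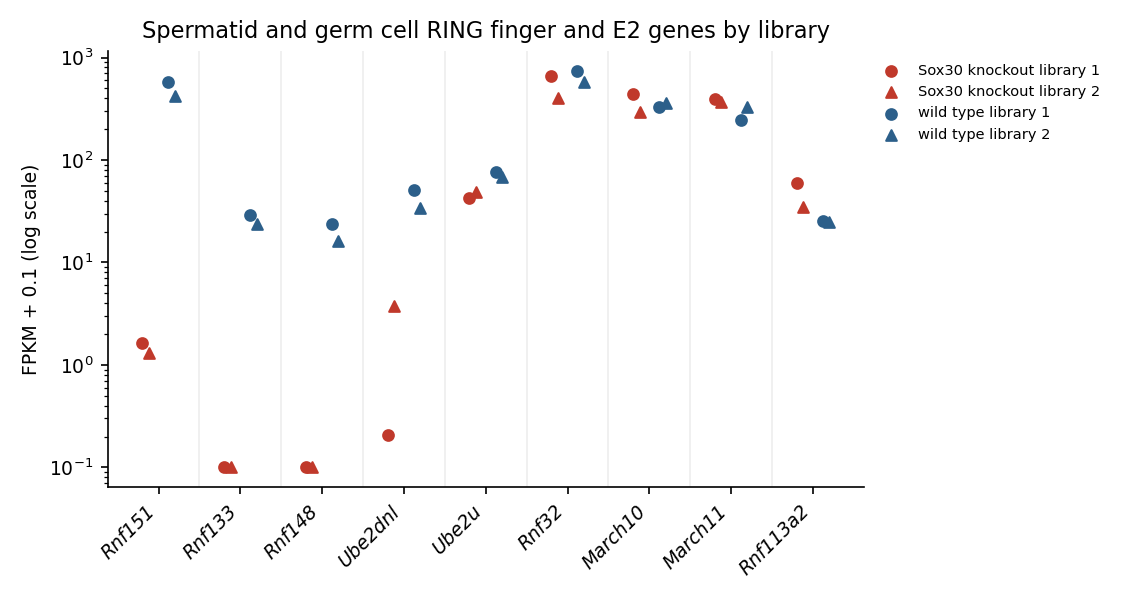
Level of the 9 spermatid and germ cell genes in each library (FPKM + 0.1, log scale); red marks are knockout libraries, blue marks wild-type libraries, circles library 1 and triangles library 2. Rnf151, Rnf133, Rnf148 and Ube2dnl lie below 4 FPKM in both knockout libraries, while Rnf32, March10 and March11 lie at 244 FPKM or higher in all 4.

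The 113 genes outside that list are mostly widely expressed. Of 79 tested, 4 were lower in the knockout, or 5.06%, and 1 was higher. Over all genes tested, 13.4% were lower and 1.95% higher. The median change of the 79 was -0.23, the same to 2 decimals as over all genes tested. Those median changes depend on the scaling. Over all genes tested the median was -0.07 with median-ratio scaling, 0.17 with quantile normalization and 0.02 with a correction for transcript GC content. Over the 88 genes of the rule it was -0.33 as deposited, -0.17 with median-ratio scaling, 0.10 with quantile normalization and 0.02 with the GC correction. Among the 88, the change correlated with transcript GC content at a Spearman rho of 0.35. The median was -0.60 for those at or below their median GC of 47.9% and -0.03 for those above it. This is a correlation across genes that share the same 4 libraries, given as a description.

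Ligases and E2s that act on histones and at DNA breaks did not pass the test. Of 12 listed genes 11 were tested. By limma 0 fell and 0 rose, where 13.4% of all genes tested were lower and 1.95% higher. Both knockout values lay below both wild-type values for 6, where 38.6% of all genes tested do so. They lay above for 1, where 22.2% of all genes tested do so. The median change was -0.35, against -0.23 over all genes tested. Rnf8, which ubiquitinates histones around DNA breaks and, in mice, in elongating spermatids, was low, at 4.11 and 2.82 FPKM in the knockout and 2.41 and 3.70 FPKM in the wild type (log2 change 0.14, SE 0.38, limma adjusted p = 0.834). The groups overlapped, and 30.7% of its 50-base words occur in transcripts of other genes. Rnf168, which spreads the mark that RNF8 begins, stood at 0.456 and 0.550 FPKM in the knockout, both below the 1.54 and 2.82 FPKM of the wild type (limma adjusted p = 0.108). Ube2b, a RAD6 homologue without which male mice are sterile, was the most abundant of this list, at 38.9 and 29.9 FPKM in the knockout and 63.0 and 52.6 FPKM in the wild type (log2 change -0.74, SE 0.31, limma adjusted p = 0.170). Its X-linked twin Ube2a stood at 18.1 and 18.6 FPKM in the knockout and 35.2 and 29.6 FPKM in the wild type (limma adjusted p = 0.148). Both had the same order, knockout below wild type in each library. The Ube2b change was -0.92 without knockout library 1 and -0.55 without knockout library 2. Ube2t, the E2 of the Fanconi anaemia pathway, stood at 36.2 and 30.9 FPKM in the knockout and 48.6 and 37.8 FPKM in the wild type (limma adjusted p = 0.483). Rnf20 and Rnf40 encode partners in a ligase for histone H2B. Knockout levels of Rnf20 were 1.32 and 0.979 FPKM and wild-type levels 0.693 and 1.77 FPKM (limma adjusted p = 0.983), and knockout levels of Rnf40 were 13.3 and 13.0 FPKM and wild-type levels 6.49 and 11.6 FPKM (limma adjusted p = 0.386). Rnf2, of the Polycomb ligase for histone H2A, stood at 3.50 and 2.97 FPKM in the knockout and 4.95 and 3.92 FPKM in the wild type (limma adjusted p = 0.530).

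Genes of quality control in the endoplasmic reticulum included 2 of the other falls. Of 15 such genes, 10 were tested, 2 fell, 0 rose and 8 did not pass. The share that fell was 20%, where 13.4% of all genes tested were lower. The median change was -0.55, against -0.23 over all genes tested. Rnf139, a sterol-responsive ligase of the reticulum membrane, stood at 10.3 and 3.97 FPKM in the knockout, both below the 23.3 and 37.5 FPKM of the wild type (log2 change -2.03, SE 0.50, limma adjusted p = 0.0486). The call lay next to the threshold and ended in 6 of 13 alternatives, with adjusted p up to 0.479 when wild-type library 2 was left out, and 22.3% of its exon bases lie opposite other genes. Ube2g2, an E2 of reticulum-associated degradation, stood at 2.32 and 1.31 FPKM in the knockout and 8.43 and 6.91 FPKM in the wild type (log2 change -1.64, SE 0.38, limma adjusted p = 0.0389). It was called in 6 of 12 alternatives, and not without wild-type library 1 (adjusted p = 0.336) or wild-type library 2 (adjusted p = 0.320). Ube2j1, a membrane-bound E2 of the same pathway that mouse sperm development needs, was the most abundant of the group, at 60.4 and 45.8 FPKM in the knockout and 90.9 and 82.8 FPKM in the wild type (log2 change -0.71, SE 0.30, limma adjusted p = 0.169). All of its knockout values lay below the wild-type values. Its change was -0.91 without knockout library 1 and -0.52 without knockout library 2.

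The remaining falls were in ligases of low level. Rnf41, also known as Nrdp1, a ligase for ERBB receptors, stood at 1.57 and 2.67 FPKM in the knockout and 10.7 and 12.1 FPKM in the wild type (log2 change -2.01, SE 0.37, limma adjusted p = 0.0182). Rnf44 stood at 0.418 and 0.501 FPKM in the knockout and 3.18 and 4.65 FPKM in the wild type (log2 change -1.74, SE 0.34, limma adjusted p = 0.0233), and passed the filter through its wild-type level. In both genes the groups were well apart. Without wild-type library 1 adjusted p was 0.280 for Rnf41 and 0.0904 for Rnf44, and without wild-type library 2 it was 0.303 for Rnf41 and 0.138 for Rnf44. Rnf41 was called in 9 of 13 alternatives and Rnf44 in 8 of the 12 in which it was tested. March5, a ligase of the mitochondrial outer membrane named after its values were seen, differed widely between the knockout libraries, at 3.45 and 0.0558 FPKM, against 11.1 and 13.9 FPKM in the wild type (log2 change -2.63, SE 0.70, limma adjusted p = 0.0595). It passed in 8 of 13 alternatives. Of the 7 MARCH genes tested, March10 and March11 included, 0 fell and 0 rose by limma. Over all genes tested, 13.4% were lower and 1.95% higher. The other MARCH genes were low next to March10 and March11. March10 and March11 together held the bulk of the summed March level. March10 took 51.1% and 43.8% of it in the knockout, against 54.3% and 49.2% in the wild type, and March11 took 45.4% and 54.1% in the knockout, against 40.6% and 45.4% in the wild type.

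Rnf31 was the only gene of the rule past the threshold upwards. It encodes the catalytic subunit of the ligase that builds linear ubiquitin chains, and stood at 4.0 and 3.86 FPKM in the knockout, against 0.685 and 0.812 FPKM in the wild type (log2 change 1.50, SE 0.33, limma adjusted p = 0.0318). The knockout values lay close together and above both wild-type values. The call ended without wild-type library 1 (adjusted p = 0.250) or wild-type library 2 (adjusted p = 0.239), with low genes also tested (adjusted p = 0.0920) and with a pseudocount of 0.1 (adjusted p = 0.0524). It was called in 7 of 12 alternatives and passed the filter through its knockout level. The RING-between-RING ligases, which pass ubiquitin through a cysteine of their own, number 8 with Rnf31. Of these, 5 were tested and Rnf31 was the only one called, where 15.3% of all genes tested were called. Rnf19a, known as dorfin, stood at 14.1 and 16.0 FPKM in the knockout and 18.0 and 29.3 FPKM in the wild type (log2 change -0.58, SE 0.37, limma adjusted p = 0.328). Its paralogue Rnf19b stood at 83.0 and 63.7 FPKM in the knockout and 28.4 and 58.4 FPKM in the wild type (log2 change 0.82, SE 0.42, limma adjusted p = 0.242). The groups did not overlap in either gene, with the knockout below the wild type for Rnf19a and above it for Rnf19b, and the wild-type libraries differed more than the knockout libraries in Rnf19a. The change of Rnf19b was 0.63 without knockout library 1 and 1.01 without knockout library 2.

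**Figure D3:**
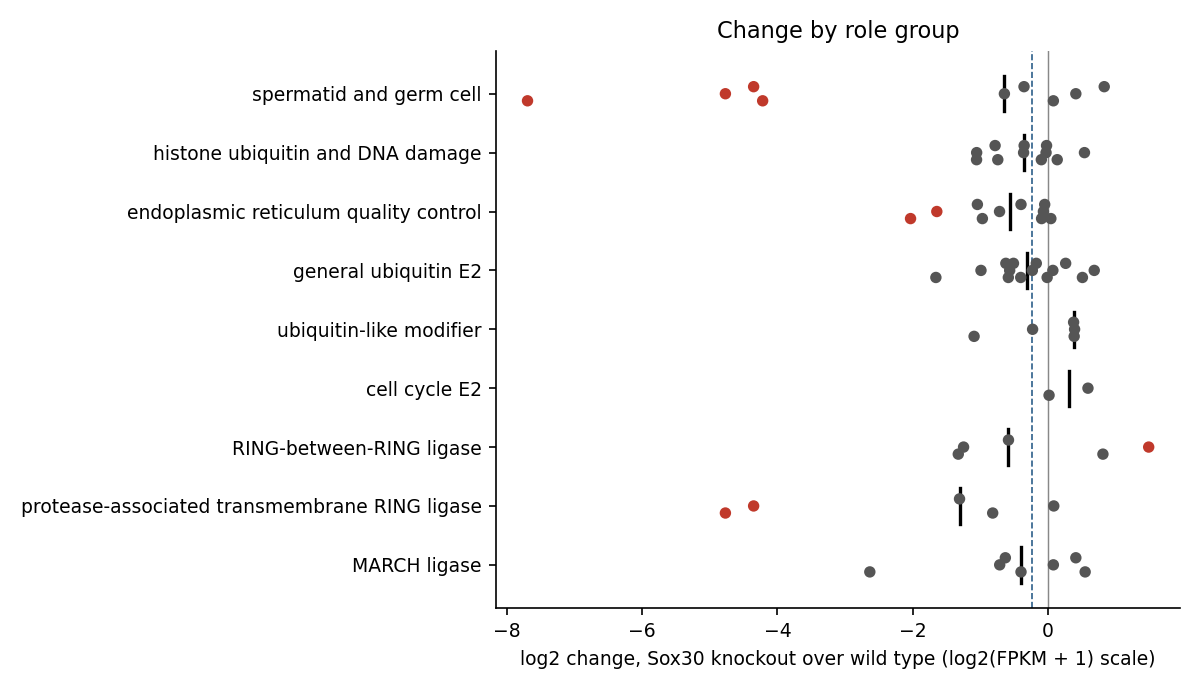
Change of each tested gene (knockout over wild type, log2(FPKM + 1) scale) by role group; a gene can stand in more than 1 group, points are spread vertically for legibility only, red points were called, black bars are group medians and the dashed line is the median over all genes tested, -0.23. Falls beyond -4 stand only in the spermatid and germ cell row and, for Rnf133 and Rnf148, also in the row of protease-associated transmembrane ligases.

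The E2 genes here were taken by the Ube2 prefix alone, which does not show that each encodes an E2. Their summed level was 1225 and 1299 FPKM in the knockout libraries, slightly above the 1199 and 1155 FPKM of the wild-type libraries. The FPKM of all symbols summed to different totals in the libraries. As a share of that total the E2 genes held 0.205% and 0.193% in the knockout, both below the 0.211% and 0.231% of the wild type. Of 33 tested, 2 fell (Ube2dnl and Ube2g2), or 6.06%, where 13.4% of all genes tested were lower, and 0 rose. Ube2cbp, in the group by its name only, had the largest rise and was named after its values were seen. It stood at 3.58 and 3.22 FPKM in the knockout and 1.12 and 1.01 FPKM in the wild type (log2 change 1.09, SE 0.33, limma adjusted p = 0.0835). It was called higher with the GC correction and with quantile normalization. Ube2s, which extends chains for the anaphase-promoting complex, was the most abundant of the family in each library, at 383 and 510 FPKM in the knockout and 295 and 289 FPKM in the wild type (log2 change 0.60, SE 0.28, limma adjusted p = 0.208). It took 31.3% and 39.3% of the summed E2 level in the knockout, against 24.6% and 25.0% in the wild type. Its partner Ube2c, which starts those chains, stood at 83.0 and 60.8 FPKM in the knockout and 80.1 and 61.2 FPKM in the wild type (limma adjusted p = 0.974). The groups thus lay apart for Ube2s and overlapped for Ube2c, and 22.8% of the exon bases of Ube2c lie opposite another gene. E2s for ubiquitin-like proteins were also abundant. Ube2m, which carries NEDD8, stood at 229 and 200 FPKM in the knockout and 147 and 181 FPKM in the wild type (limma adjusted p = 0.383). Ube2f, the other NEDD8 E2, stood at 82.9 and 76.6 FPKM in the knockout and 58.2 and 62.3 FPKM in the wild type (limma adjusted p = 0.370). In both genes each knockout value lay above both wild-type values. Rnf7, the RING subunit that serves NEDD8-activated cullin 5 ligases, showed the same order, at 127 and 152 FPKM in the knockout and 119 and 102 FPKM in the wild type (limma adjusted p = 0.464), with 30.7% of its 50-base words shared with other genes.

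The general ubiquitin E2s did not pass. Of 14 tested, 0 fell and 0 rose, where 13.4% of all genes tested were lower and 1.95% higher. The median change was -0.31. Ube2e2, of low level, stood at 1.13 and 0 FPKM in the knockout and 3.89 and 3.32 FPKM in the wild type (log2 change -1.65, SE 0.45, limma adjusted p = 0.0645). It passed in 4 alternatives, and was named after its values were seen. Ube2d3, a broad-range E2, stood at 40.8 and 51.8 FPKM in the knockout and 36.9 and 39.2 FPKM in the wild type (limma adjusted p = 0.579). Ube2l3 is an E2 that serves RING-between-RING and HECT ligases. It stood at 42.4 and 61.2 FPKM in the knockout and 33.9 and 28.8 FPKM in the wild type (log2 change 0.69, SE 0.33, limma adjusted p = 0.213). Its change was 0.95 without knockout library 1 and 0.43 without knockout library 2, and 28.6% of its exon bases lie opposite another gene. Each knockout value of Ube2d3 and Ube2l3 lay above both wild-type values. Abundant ligases of other roles did not pass either. Rnf126, which handles misplaced membrane proteins, stood at 141 and 68.0 FPKM in the knockout and 110 and 110 FPKM in the wild type (limma adjusted p = 0.813). Rnf181 stood at 127 and 85.4 FPKM in the knockout and 126 and 114 FPKM in the wild type (limma adjusted p = 0.695), and Rnf187 at 150 and 92.3 FPKM in the knockout and 55.4 and 91.2 FPKM in the wild type (limma adjusted p = 0.267). Rnf167, of the protease-associated group like Rnf133 and Rnf148, stood at 48.0 and 34.2 FPKM in the knockout and 36.6 and 39.4 FPKM in the wild type (limma adjusted p = 0.873). In Rnf126, Rnf181 and Rnf167 the groups overlapped, and the knockout libraries differed more than the wild-type libraries. Of the 5 tested in that protease-associated group, 2 fell and 0 rose, where 13.4% of all genes tested were lower.

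**Figure D4:**
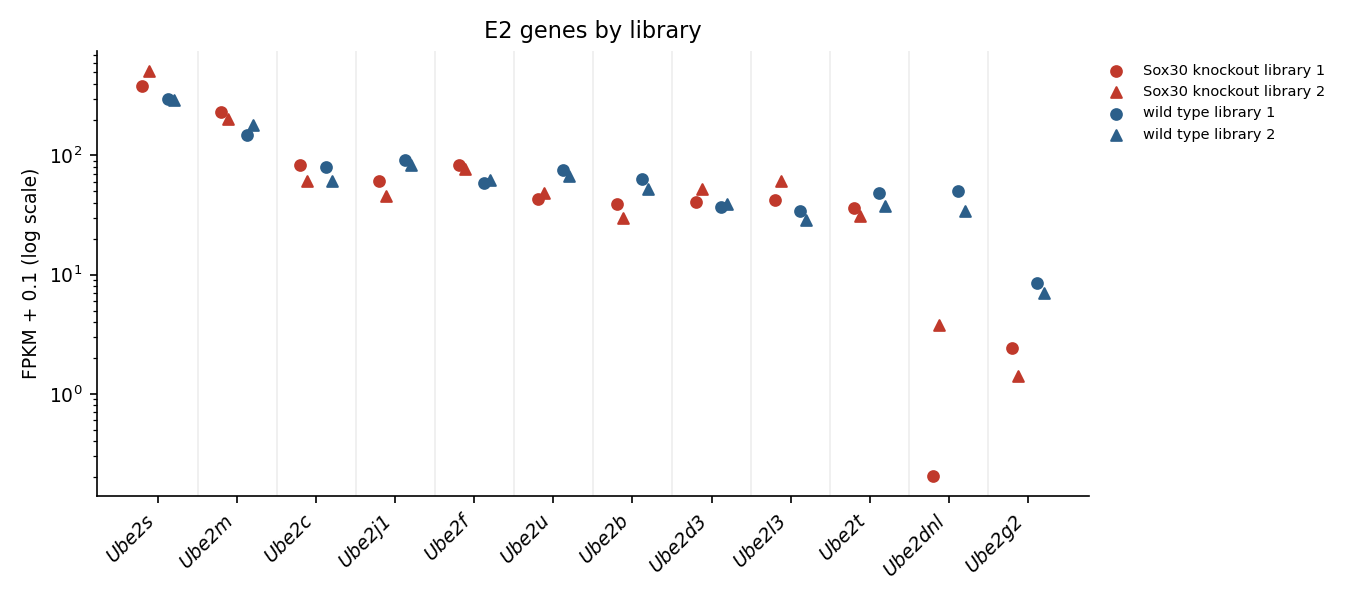
Level in each library (FPKM + 0.1, log scale) of the 12 E2 genes that were called, are germ cell genes or are among the most abundant of their role, ordered by mean; red marks are knockout libraries, blue marks wild-type libraries, circles library 1 and triangles library 2. Ube2dnl and Ube2g2 lie below 4 FPKM in both knockout libraries, while Ube2s and Ube2m lie highest in all 4.

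The genes around this relay were read from 3 lists of ubiquitin and E1 genes, partners of RNF8 and histone ligases, and deubiquitinases. Of 34 tested, 9 fell and 1 rose, where 13.4% of all genes tested were lower and 1.95% higher. The counts were 1 and 0 without wild-type library 1, 0 and 0 without wild-type library 2, 20 and 2 without knockout library 1, 13 and 1 without knockout library 2, and 3 and 0 with low genes also tested. Of the 9, Uba1, Ube1y1, Uba3 and Trp53bp1 passed the filter through their wild-type levels. Among ubiquitin and E1 genes 4 of 12 fell, 0 rose and the median change was -0.89. Uba1, the main E1, stood at 0.0274 and 0.298 FPKM in the knockout, against 4.62 and 11.9 FPKM in the wild type (log2 change -2.88, SE 0.49, limma adjusted p = 0.0132). Its Y-linked homologue Ube1y1 stood at 0 and 0.101 FPKM in the knockout, against 2.47 and 6.16 FPKM in the wild type (limma adjusted p = 0.0216). Each wild-type value was far above each knockout value, although the wild-type libraries differed from each other too. The homologues resemble each other and may share reads. Spermatogonial markers moved the same way, as Stra8 was listed at 0 in both knockout libraries, against wild-type levels of 7.20 and 5.48 FPKM. Their part in these falls was not tested. Uba3 and Nae1, which together form the E1 for NEDD8, fell as well. Uba3 stood at 0.684 and 0.377 FPKM in the knockout and 4.0 and 4.21 FPKM in the wild type (limma adjusted p = 0.0201), and Nae1 at 8.68 and 7.92 FPKM in the knockout and 24.7 and 23.6 FPKM in the wild type (limma adjusted p = 0.0322). Ubb, a polyubiquitin gene, was the most abundant of these lists, at 4503 and 3401 FPKM in the knockout and 2840 and 2436 FPKM in the wild type (log2 change 0.57, limma adjusted p = 0.227). Its knockout values lay above its wild-type values.

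Among deubiquitinases 4 of 13 fell and 0 rose, where 13.4% of all genes tested were lower, and the median change was -0.77, against -0.23 over all genes tested. Otub2 had the largest change of them, at 2.65 and 2.13 FPKM in the knockout, against 64.0 and 48.2 FPKM in the wild type (log2 change -4.06, SE 0.34, limma adjusted p = 0.00110). Usp7 stood at 6.07 and 5.29 FPKM in the knockout and 21.9 and 30.3 FPKM in the wild type (limma adjusted p = 0.0140). Usp44 stood at 7.56 and 4.96 FPKM in the knockout and 21.7 and 23.3 FPKM in the wild type (limma adjusted p = 0.0261). Uchl1, known also as a spermatogonial gene, stood at 5.76 and 3.28 FPKM in the knockout and 17.8 and 21.7 FPKM in the wild type (limma adjusted p = 0.0235). Uchl3, the most abundant of the list, stood at 325 and 298 FPKM in the knockout and 315 and 247 FPKM in the wild type (limma adjusted p = 0.729). Usp2, next in level, stood at 106 and 64.2 FPKM in the knockout and 115 and 135 FPKM in the wild type (limma adjusted p = 0.296). Its knockout values lay below its wild-type values, while those of Uchl3 overlapped with them. Among partners of RNF8 and the histone ligases 1 of 9 fell and 1 rose. Trp53bp1, which reads ubiquitinated histones at DNA breaks, stood at 0.319 and 0.743 FPKM in the knockout and 2.93 and 4.47 FPKM in the wild type (limma adjusted p = 0.0368). Ring1, the Polycomb paralogue of Rnf2, rose, at 9.37 and 7.70 FPKM in the knockout and 1.56 and 1.99 FPKM in the wild type (log2 change 1.78, SE 0.35, limma adjusted p = 0.0235). Its groups lay well apart. Paf1, of the complex that joins RNF20 and RNF40 to transcription, and Wac, which works with the same ligases, were the most abundant of this list over the 4 libraries. Paf1 stood at 7.13 and 9.78 FPKM in the knockout and 8.83 and 13.1 FPKM in the wild type (limma adjusted p = 0.588), and Wac at 4.86 and 2.63 FPKM in the knockout and 9.14 and 15.7 FPKM in the wild type (limma adjusted p = 0.0805). The groups overlapped for Paf1, while each knockout value of Wac lay below each wild-type value.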

How the data were processed

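RNA of haploid cells sorted by Hoechst staining was sequenced in 2 Sox30 knockout and 2 wild-type libraries, made with the NEBNext Ultra kit per the labels' protocols. The counting's strand setting is not given in the sources used. The authors deposited FPKM per symbol, 23021 entries per library; TopHat2 2.0.6, Cufflinks 2.0.2, Cuffdiff and the build mm9 are listed, without roles, per the submitters' processing notes. Rows of 1 symbol were summed. Absolute depth is unknown; steps between the lowest FPKM gave depths relative to wild-type library 1 of 1.24 and 1.17 for knockout libraries 1 and 2 and 1.39 for wild-type library 2.

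Genes with a mean of at least 1 FPKM were tested as log2(FPKM + 1) with limma 3.58.1 in R 4.3.3 (genotype as the only term, mean-variance trend, two-sided, Benjamini-Hochberg over 9124 genes, threshold 0.05). Members, gene lists and tests were chosen with earlier results of these data known. Named were Sox30, the genes of the germ cell list, Rnf8, Rnf19a, every called gene, the 10 most abundant genes and the 2 most abundant of each role list, and of the pathway lists every called gene and the 2 most abundant; others are values of the same lists or marked. Alternatives were pseudocounts of 0.1 and 5, no filter, a mean of at least 5 FPKM, median-ratio scaling, quantile normalization, a lowess correction on transcript GC, leaving out each library and the library number as a block; the crossed block and the fit without date-like entries were chosen after the data were seen. A genotype left with 1 library was assumed to vary like the other. On simulated data of 9124 genes and 200 altered ones, the fit called 0% of log2 changes of 2, 84.4% of 4 and 94.2% of 6. In the data 1399 genes were called, which makes the adjustment less strict than in the simulation. Changes near 2, such as -2.01 for Rnf41, were called there, so the simulated shares do not carry over to the data. Transcript GC, exon overlap and 50-base words came from GENCODE M21, matched by symbol for all 122 genes, and promoters from RefSeq (GRCm38.p6), matched for 97. The files' symbols carry no coordinates. Some genes of these lists are not reported here by name.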

Additional observations from a re-analysis of the deposited data

How the results depend on the processing

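Under every alternative run, Rnf151, Rnf133, Rnf148, Ube2dnl, Rnf139, Rnf41, Rnf44 and Ube2g2 kept a negative change and Rnf31 a positive one, where they were tested. Genes of the rule called lower numbered 8, against 3 with no filter on low values and 5 each under quantile normalization and a pseudocount of 0.1. Called higher was 1, against 2 with the GC correction, 3 under quantile normalization and 0 under a pseudocount of 0.1, with no filter or with a mean of at least 5 FPKM. Leaving out 1 library gave 0 to 27 lower and 0 to 7 higher. Over all genes, 1221 were lower and 178 higher. Leaving out 1 library gave 0 to 3071 lower and 0 to 984 higher. Lower were 787 with a mean of at least 5 FPKM. Higher were 322 with the GC correction, 283 with median-ratio scaling, 62 with no filter, 608 with quantile normalization and 113 with a pseudocount of 0.1. Fewer genes enter at 5 FPKM, and more without a filter; otherwise the cause was not tested. The Sox30 change of -2.19 did not pass with no filter (-2.19, adjusted p = 0.0660), and it ranged from -2.57 to -1.81 when any 1 library was left out, not passing without wild-type library 1 (-2.43) or 2 (-1.95).

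The library numbers are shared between genotypes only as numbers. The difference of knockout libraries 1 and 2 correlated with that of the wild-type libraries at -0.20 across genes. With the number as a replicate block 7 genes of the rule were lower and 0 higher, of the pathway lists 6 were lower and 0 higher, and over all genes 1056 were lower and 82 higher; Rnf31 then had an adjusted p of 0.0828 by limma. With the pairing crossed, 10 were lower and 1 higher, and over all genes 1416 were lower and 390 higher. Leaving out the date-like March entries left 8 lower and 1 higher.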

Other observations

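Septin genes, which encode filament proteins of the sperm annulus among others, also stand in the data as dates. Of 14 September dates, 15-Sep matched no septin symbol and was left unread. Sept4, an annulus septin, stood at 0.110 and 0.156 FPKM in the knockout libraries, against 8.68 and 11.9 FPKM in the wild-type libraries (log2 change -3.30, SE 0.35, limma adjusted p = 0.00249). Sept12, another septin of the sperm tail, lay the other way, at 388 and 304 FPKM in the knockout and 188 and 183 FPKM in the wild type (log2 change 0.88, SE 0.28, limma adjusted p = 0.0916). Sept10 stood at 79.8 and 86.1 FPKM in the knockout and 77.8 and 90.7 FPKM in the wild type (limma adjusted p = 0.972). These genes were picked after their values were seen, and a search of the tables by symbol misses them.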
